A study of Mus musculus with 6 samples.

Results

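The stretch of mouse chromosome 2 from 115 to 125 Mb (build mm9) was compared between Prss37 knockout and wild-type testes, probe by probe in genomic order. All probes other than controls whose lower coordinate lies in the interval were taken, which gave 254 of the 41174 probes on the array, for 152 of 27340 genes, unnamed transcripts included. The interval was chosen from a scan of calls by position on these same arrays, after those calls had been seen. Its calls and differences are therefore a description and carry no test of their own.

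Total RNA of whole testes from 3 mice lacking Prss37 and 3 wild types, all male, on C57BL/6 and 6 to 8 weeks old per the labels, was hybridised to 1-colour Agilent-014868 arrays. Each array counts as 1 mouse, as the design text words it. Prss37 encodes a testis protein of the trypsin-like serine protease family. A label field of the knockout samples gives Prss55 instead of the Prss37 of their titles, and the titles set the groups. Which part of Prss37 was deleted, how the allele was made and whether the wild-type mice were littermates are not given in the sources used here.

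On a 1-colour array each probe reports the abundance of transcripts that contain its own 60 bases. Probes of 1 gene can lie in different exons or in different end regions, and a transcript form that lacks 1 of these stretches is not seen by the probe placed there. The testis holds germ cells at every stage of sperm formation beside Sertoli, Leydig and other somatic cells, and a whole-testis level sums over them. Fewer cells of a type and less RNA per cell cannot be told apart in such samples.

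The interval's largest fitted differences, and the genes whose probes differed most from each other, rest on 10 probes in 6 genes, whose first 30 bases are shown so that the stretch of transcript behind each value can be found. All lie on chromosome 2 and are written in lower case as the scanner files list them, with no stretch singled out.
Ltk probe A_52_P519783, minus strand, chr2:119577542-119577601: aggctgggaaacaggtcactggagggtctt
Pla2g4e probe A_52_P203948, minus strand, chr2:119992643-119992702: tggttgttgagagattaatgacacccaacg
Bloc1s6 probe A_51_P510466, plus strand, chr2:122569877-122569936: gttactagatacactggaacaagagatttc
Bloc1s6 probe A_52_P153957, plus strand, chr2:122573387-122573446: ggaaatcaaaagtgcagtagtatactttct
Spg11 probe A_51_P289407, minus strand, chr2:121879343-121879402: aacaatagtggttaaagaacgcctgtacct
Spg11 probe A_51_P289414, minus strand, chr2:121879563-121879622: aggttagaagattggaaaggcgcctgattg
Spg11 probe A_52_P150775, minus strand, chr2:121919189-121919248: ctgaaaaagaaagaagaactgtagactttg
Ccdc32 probe A_52_P305182, minus strand, chr2:118843986-118844045: atggtttagtgtttgacacaactcttgatt
Ccdc32 probe A_51_P259848, minus strand, chr2:118847487-118847546: tcttcttatcctctaatcttcagtgccata
Serinc4 probe A_51_P350962, minus strand, chr2:121276877-121276906: ttgaggtcaaaggaaatggaagacaaaaaa
The listed coordinates of the Serinc4 probe cover 30 bases of its 60. Whether a probe lies in coding or untranslated sequence was not determined here.

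Of the 254 probes, 191 were tested, that is, well above background on every usable array of at least 1 genotype. Of the 63 others, 53 were above background on 0 of 6 arrays and 10 on 1 to 5 arrays, and 34 genes, among them the Notch ligand gene Dll4 and the adhesive glycoprotein gene Thbs1, had no tested probe. Differences are knockout minus wild type in log2 processed signal, after each array's 75th percentile was subtracted, and a probe was called at a limma adjusted p under 0.05 over all 28301 tested probes. In the interval 13 probes of 11 genes were called higher and 15 probes of 15 genes lower, or 28 of 191 (14.7%), against 1.04% of all tested probes (0.466% higher, 0.569% lower). Because these calls chose the interval, nothing is read from that contrast. With the slide as a block 9 interval probes were called (1 higher, 8 lower), against 0.11% of all tested probes, and all 9 had been called without it. Leaving out knockout replicate 1 left 1 higher and 5 lower calls, knockout replicate 2 left 0 and 2, and knockout replicate 3 left 0 and 4. Leaving out wild-type replicate 1 left 0 and 4, dropping wild-type replicate 2 gave 20 and 16, and dropping wild-type replicate 3 gave 11 and 16. The share of all tested probes called in these fits is not given here. A change in the interval and a change over the whole array therefore cannot be told apart. Of the 28 called probes 26 lost their call in at least 1 of these 6 fits. The other 2, of Ltk and Pla2g4e, were above background in wild type only, so their calls rest on knockout values near the floor.

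The 3 knockout arrays lay all above or all below the 3 wild-type arrays for 108 of the 191 tested probes (56.5%), against 30.4% of all tested probes, and again nothing is read from it. All 28 called probes were among the 108. Most of their differences were small: 15 of the 28 were under 0.6 in size and 6 were over 0.9. The median difference over the 191 tested probes was 0.03, beside -0.002 over all tested probes, and the median size was 0.16 beside 0.09. A larger median size was not particular to the interval: between 85 and 95 Mb of chromosome 8, where 2 of 170 tested probes were called, it was 0.17.

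Called probes ran from 117080619 to 122569877, a span of 5.489 Mb that held 177 of the 191 tested probes. The 7 tested probes below it and the 7 above it were not called. Higher and lower calls were interspersed along it: of 27 pairs of neighbouring called probes 15 had the same direction, and the calls formed 13 runs of 1 direction. The longest run of 6 falls went from Jmjd7 to Ganc. Between 119 and 120 Mb, 9 of 49 tested probes were called, 6 of 31 between 118 and 119 Mb, 6 of 43 between 120 and 121 Mb, and 4 of 38 between 121 and 122 Mb. No probe lies between 123 and 124 Mb, within a gap of 1.85 Mb.

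**Figure D1:**
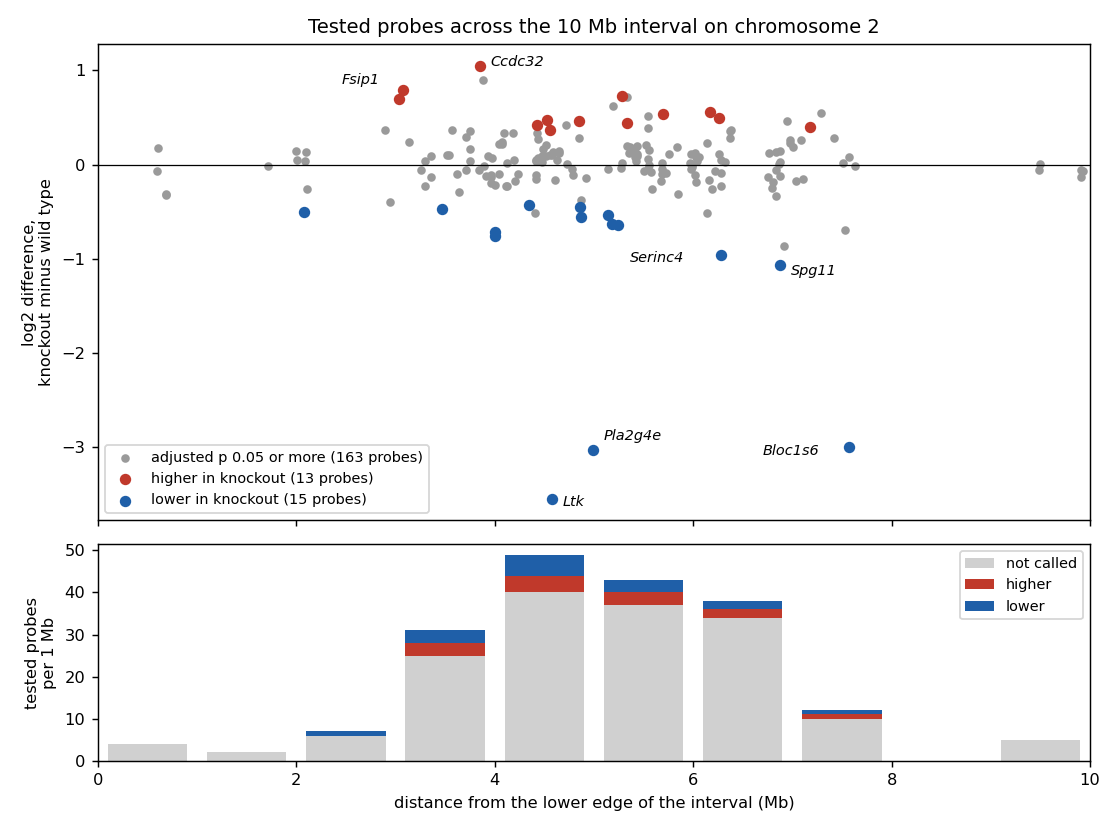
The upper panel plots the log2 difference of each of the 191 tested probes against its distance in Mb from the interval's lower edge, with called probes in red (13 higher) and blue (15 lower). The lower panel stacks the tested probes per 1 Mb by call. Higher and lower calls lie side by side, and the 3 probes at about -3 belong to Ltk, Pla2g4e and Bloc1s6.

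At the lower edge the nearest tested probes inside were those of 5730575I04Rik, BC052040 and Meis2, with differences of -0.07, 0.18 and -0.32. Just outside it lay Zfp770 at -0.03 and 2 probes of Dph6 at -0.03 and 0.07. Inside the upper edge 2 probes of Myef2 had -0.13 and -0.07 and Slc24a5 had -0.05. Outside it 2 probes of the dUTPase gene Dut had -0.20 and -0.25 and the fibrillin gene Fbn1 had -0.31. Of these 12 edge probes only that of Fbn1 was called. The window from 110 to 115 Mb held 1 called probe among 41 tested and that from 125 to 130 Mb 4 among 104, and the rest of the chromosome outside the interval 35 among 2021.

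The lowest fitted differences were those of Ltk, Pla2g4e and 1 probe of Bloc1s6. For Ltk and Pla2g4e the knockout signals were not above background, so their folds are not measured, while that of Bloc1s6 is measured. Ltk, a receptor tyrosine kinase of the ALK family, had signals of 12.1, 13.8 and 10.9 in the 3 knockout testes and 153, 153 and 134 in the wild types. The knockout arrays were all below the wild types, and none of them was well above background. The fitted difference was -3.55 (SE 0.12). Set against the lowest signal that counted as above background, Ltk was 4.48-fold lower. That is not a strict lower bound, because the limit differed between spots. A Tyro3 probe at 31.6 in knockout replicate 2 counted as above background, and a Spred1 probe at 44.9 in wild-type replicate 3 did not. The difference was -3.57 on slide 1 and -3.51 on slide 2.

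Pla2g4e encodes a cytosolic phospholipase A2 family enzyme that acts as an N-acyltransferase on membrane phospholipids. Its signals were 7.24, 6.71 and 7.04 in knockout and 61.8, 54.9 and 58.3 in wild type. Here too no knockout array was well above background, so how far apart the genotypes were is not measured, and the SE rests on values near the floor. The fitted difference was -3.03 (SE 0.06). Set against the lowest above-background signal the level was 1.79-fold lower, again not a strict bound. That value is below the measured folds of Spg11 (2.09) and Serinc4 (1.94). With normexp background correction and an offset of 50, which draws dim signals together, the differences were -1.17 for Ltk and -0.72 for Pla2g4e.

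Bloc1s6 encodes pallidin, a subunit of the BLOC-1 complex in the formation of lysosome-related organelles. Its probe at 122569877 had signals of 70.1, 83.5 and 97.2 in knockout and 631, 608 and 819 in wild type. All 6 values were well above background, so the fold is measured on both sides. The difference was -3.00 (SE 0.16), or 8.02-fold lower, and it was -3.02 on slide 1 and -2.97 on slide 2. The call was lost when knockout replicate 2 (-3.03) or wild-type replicate 1 (-3.05) was left out.

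The other Bloc1s6 probe, on the same transcript record and 1300 transcript bases away, showed no such fall. Its signals were 1154, 1055 and 1121 in knockout and 1003, 1133 and 1093 in wild type. The ranges overlapped, and the difference was 0.08 (SE 0.06). The mean of both probes would give -1.46 for the gene, a value that neither probe showed.

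Spg11, the gene of spatacsin, a protein of lysosome renewal, had 3 tested probes. The called one, at 121879563, had signals of 3297, 3019 and 3047 in knockout and 6359, 6751 and 6891 in wild type. The knockout signals were below every wild-type signal, with a difference of -1.06 (SE 0.05), or 2.09-fold lower. It lost its call without knockout replicate 2 (-1.06) and on slide 1 alone (-1.06).

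A probe whose start lies 220 bases from it on the same Spg11 transcript had signals of 330, 288 and 314 in knockout and 350, 335 and 346 in wild type. These did not overlap either, but the difference was only -0.12 (SE 0.05). The third Spg11 probe was dim, with 26.7, 29.0 and 19.8 in knockout, none well above background, and 48.1, 40.2 and 50.6 in wild type. Its fitted difference was -0.86 (SE 0.16), or 1.41-fold lower when set against the lowest above-background signal, and it was not called.

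**Figure D2:**
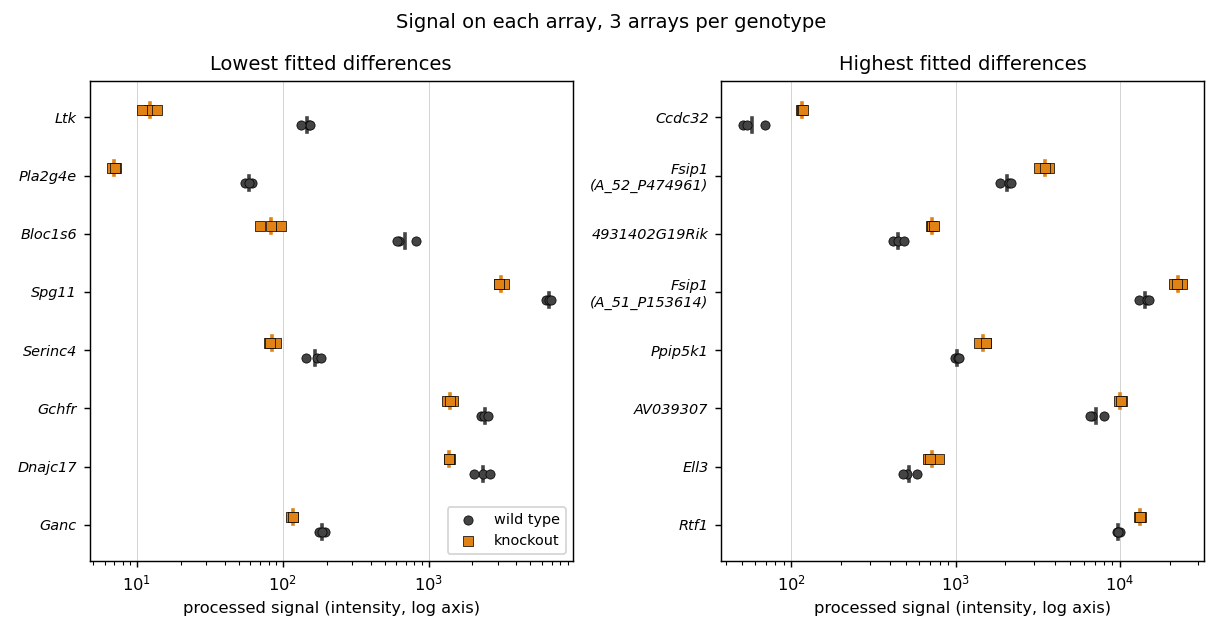
Processed signal (intensity, log axis) on each of the 6 arrays for the called probes in the interval with the 8 lowest (left) and the 8 highest (right) fitted differences. Grey circles are wild-type and orange squares knockout arrays, and vertical bars are the means of 3 arrays. In each of the 16 probes shown the genotypes do not overlap.

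Among the remaining falls over 0.6, Serinc4, of the serine incorporator family, had 89.3, 80.0 and 82.2 in knockout and 172, 145 and 184 in wild type (difference -0.96, SE 0.07). Gchfr, the feedback regulator of GTP cyclohydrolase I, had 1470, 1333 and 1406 against 2300, 2417 and 2556 (-0.76, SE 0.04). Dnajc17, a J-domain cochaperone gene, had 1411, 1376 and 1382 against 2366, 2050 and 2626 (-0.72, SE 0.07). In these 3 genes every knockout signal was below every wild-type signal. The called probes of Gchfr and Dnajc17 are on opposite strands with 260 bases between them. The second Dnajc17 probe had a difference of -0.22 and was not called.

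Ganc, an alpha-glucosidase gene, showed the same kind of split. Its called probe had 118, 115 and 118 in knockout and 196, 176 and 187 in wild type (-0.64, SE 0.05), while its other probes, further along the same transcript record, had -0.04 and 0.01. Tmem87a, a Golgi membrane protein gene, had -0.63 (SE 0.05) on its only tested probe. The other called falls were between -0.43 and -0.56.

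The largest rise was in Ccdc32, a coiled-coil protein gene, whose called probe had 115, 116 and 118 in knockout and 51.3, 69.1 and 53.7 in wild type. Knockout signals were all higher and close together, with a difference of 1.05 (SE 0.13), or 2.07-fold. The call was among those lost with the slide as a block, and the difference was 0.57 with normexp. The other Ccdc32 probe, which belongs to another transcript record and starts 3501 bases away, had 1313, 1231 and 1191 against 1253, 1350 and 1378. Its ranges overlapped, at a difference of -0.06 (SE 0.05).

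Fsip1, which encodes a protein that interacts with the fibrous sheath of the sperm tail, rose on both of its tested probes. The first had 23988, 21422 and 22135 in knockout and 12977, 14684 and 15099 in wild type (0.69, SE 0.06). The second, on the same transcript, had 3706, 3230 and 3501 against 1862, 2123 and 2169 (0.80, SE 0.07). In both the genotypes did not overlap. Of the 13 called genes with another tested probe, Fsip1 was the only one with every tested probe called. Both calls were lost with the slide as a block, at unchanged differences.

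A further 3 rises come from transcripts on the strand opposite to another gene's probes. The transcript 4931402G19Rik, within the span of the Ganc probes, had 710, 718 and 743 in knockout and 418, 444 and 484 in wild type (0.73, SE 0.06). The called probe of AV039307, within that of Ubr1, a ubiquitin ligase gene, had 10226, 9844 and 10105 against 6803, 6581 and 8033 (0.53, SE 0.06). The other AV039307 probe, outside that span, had -0.18. ENSMUST00000141511, within the span of Mapkbp1, had 0.46 (SE 0.05). For all 3 called probes the knockout signals were above the wild-type signals.

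Ppip5k1, a kinase gene of inositol pyrophosphate synthesis, had 1529, 1386 and 1521 against 992, 1031 and 1050 on its called probe (0.56, SE 0.05), with 0.23 and -0.16 on the others. Ell3, a transcription elongation factor gene, had 791, 679 and 696 against 505, 481 and 587 (0.50, SE 0.07). Rtf1, of the PAF1 complex that accompanies RNA polymerase, had 2 called probes among 5. The higher of them had 13374, 13120 and 13160 against 9933, 9535 and 9723 (0.47, SE 0.05), the second 0.37, and the 3 others 0.09, 0.21 and 0.10. In each of these called probes the genotypes did not overlap. Rises of 0.44 in the zinc finger gene Zfp106, 0.43 in the long noncoding RNA Oip5os1 and 0.40 in the adaptor gene Shf complete the list. The uncalled probes of Zfp106 had 0.20, 0.13 and 0.19, and those of Oip5os1 0.33 and 0.07.

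Probes of the same gene thus often gave different values. Over the 47 interval genes with at least 2 tested probes the median range of the difference was 0.21, and 7 genes (14.9%) had a range over 0.5. Outside the interval the median over 6472 genes was 0.10 and 3.45% had a range over 0.5. All 7 have a called probe, so the comparison uses the values that chose the interval and has no test. The 7 are Bloc1s6, Ccdc32, Spg11, Ppip5k1, AV039307, Ganc and Dnajc17.

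**Figure D3:**
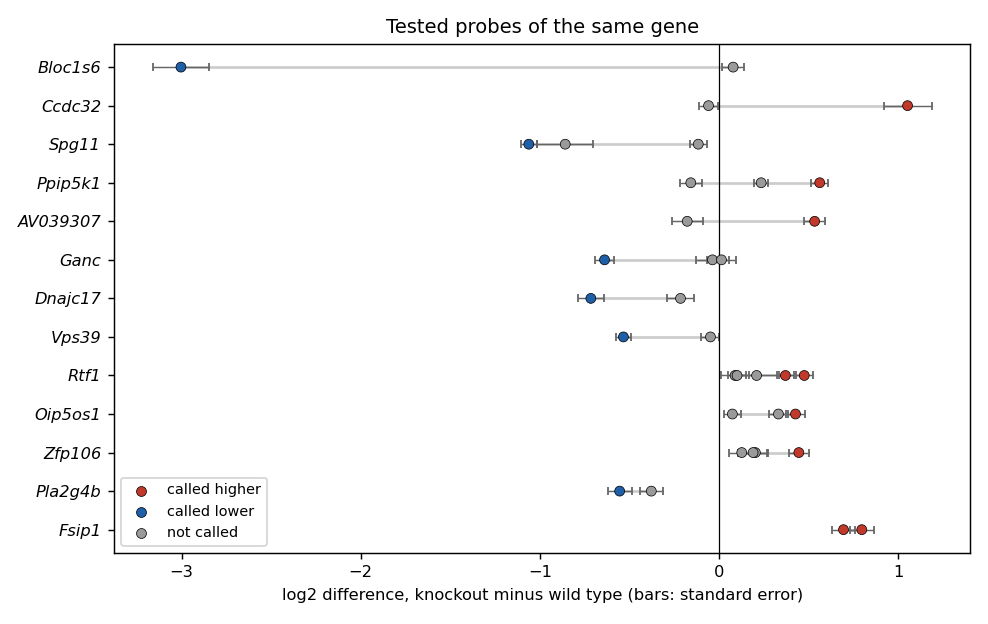
Log2 difference with its standard error for each tested probe of the 13 genes that have a called probe and at least 1 other tested probe. Blue and red points are called lower and higher, grey points are not called, and a line joins the probes of a gene. The Bloc1s6 probes lie at -3.00 and 0.08, while both Fsip1 probes lie between 0.69 and 0.80.

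By known role, 79 of the 118 tested genes fall in 1 or more of 12 lists. Their counts of calls stand beside 14.7% of the interval's tested probes and 1.04% of all tested probes, and nothing is read from them about a list. In the cytosolic phospholipase A2 cluster 3 of 5 tested probes were called, all lower, with a list median of -0.45. Beside Pla2g4e these were Pla2g4b at -0.56, whose other probe had -0.38, and the hydroxylase gene Jmjd7 at -0.45. The phospholipase C gene Plcb2 had 0.10. Of the phospholipase A2 genes alone 2 of 3 tested probes were called. Among vesicle traffic and lysosome genes 4 of 22 tested probes were called, all lower, with a list median of -0.14. These were Spg11, Dnajc17, Tmem87a and Vps39, a subunit of the HOPS tethering complex, at -0.53 with -0.05 on its other probe. Dnajc17 is placed in that list although its protein is known as a cochaperone. The most abundant uncalled members were Srp14, of the signal recognition particle, at -0.22 and Zfyve19 at -0.10.

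Among chromatin, DNA repair and transcription genes 4 of 31 tested probes were called, all higher (2 of Rtf1, Zfp106 and Ell3), with a list median of 0.04. Among testis or sperm genes 3 of 14 were higher (2 of Fsip1, and Ell3) and 3 lower, with a median of -0.04. The lower ones were Serinc4, Exd1 of the piRNA pathway at -0.43 and the spindle checkpoint kinase gene Bub1b at -0.47. The sperm calcium channel gene Catsper2 had -0.06 and Trim69 0.19, neither called.

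Bub1b was the 1 call among 17 probes of spindle, kinetochore and centrosome genes, in which Ttbk2 had -0.08 and Trp53bp1 0.08. In metabolism 3 of 18 were called, Ppip5k1 higher and Gchfr and Ganc lower, while the sorbitol dehydrogenase gene Sord had 0.26 and Sqor -0.01. Ltk was the only call among 6 probes of receptor tyrosine kinases and receptor ligands, and Tyro3, another member, had 0.12 and 0.15. Serinc4 was the only call among 5 transporter probes, in which Slc30a4 had 0.01.

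No probe was called among 17 of translation and protein quality (Serf2 0.05), 9 of cytoskeleton and extracellular matrix (Mfap1a 0.03, Ehd4 -0.14) or 8 of immune and apoptosis genes. In that last list B2m, the light chain of MHC class I, had 0.27 and 0.23. The placing of Mfap1a and Ehd4 with cytoskeleton and matrix genes is loose, and Ehd4 also stands in the vesicle traffic list. The transglutaminase list had 3 probes and 0 tested. Called genes in no list were AK033876 at -0.51, Ccdc32, Oip5os1, Shf, the 3 opposite-strand transcripts and Bloc1s6, although the product of the last acts in vesicle traffic.

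The level and the spread of a probe enter its call and are not independent of the choice of the interval. The median wild-type signal of tested probes was 822 in the interval and 770 outside it. The median within-genotype SD was 0.073 and 0.081 on the log2 scale, and the median GC content of the probes was 41.7% in both. Of the tested interval probes 109 were on the plus and 82 on the minus strand, against 13958 and 13737 outside, and their median start in the transcript was 1880.5 against 1666. Called interval probes had a median wild-type signal of 1035 and uncalled ones 720.

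The targeted gene, on chromosome 6, averaged a Prss37 signal of 117720 ± 12808 (SD, n = 3) over the wild-type mice and 70144 ± 668 (SD, n = 3) over the knockouts, a difference of -0.71 (limma adjusted p = 0.030). All 3 knockout arrays read it well above background. Where its probe lies relative to the deletion is not given in the sources used here. Prss55, which the differing label field names, averaged 60478 ± 9455 (SD, n = 3) over the wild types and 52597 ± 878 (SD, n = 3) over the knockouts (difference -0.16, limma adjusted p = 0.37). In 11 lists of cell type markers, 0 of 6 spermatid, 0 of 4 spermatocyte, 0 of 3 spermatogonium, 0 of 5 Sertoli, 0 of 3 Leydig, 0 of 8 macrophage, 0 of 1 tested endothelial and 0 of 2 tested epididymis genes were called. The epididymis genes Crisp1 and Lcn5 were not above background. Called markers were Alas2 of erythroid cells (0.53) and the B cell gene Ms4a1 (0.59), both higher, and the T cell gene Cd8b1 (-0.42) and the adipocyte gene Cidea (-0.42), both lower. Of all tested probes 1.04% were called. Summed signals did not overlap between genotypes for spermatogonium genes, at 7521 to 8142 in knockout and 9062 to 10987 in wild type. Yet 2 of these 3 genes had differences above 0, with a median of 0.02, so the lower sum does not describe the list as a whole. For spermatocyte genes the sums were 49681 to 54529 and 45498 to 48605, with 3 of 4 genes above 0 and a median of 0.09. Nor did the sums overlap for lymphocyte genes (1589 to 1693 and 2025 to 2304), adipocyte genes (9351 to 9875 and 10406 to 11603) and the single erythroid gene (4418 to 4779 and 2958 to 3496). Most of the lymphocyte sum was Cd8b1, with means of 1271 in knockout and 1738 in wild type, while Ms4a1 in that list rose. Of single tested probes over the whole array 30.4% did not overlap, and nothing is read from these sums. The sums of the other 6 lists overlapped. Of the macrophage genes 8 of 8 had differences above 0, with a median of 0.20 and sums of 9898 to 12182 and 9281 to 10184. The part of these markers in the interval's values was not tested.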

How the data were processed

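Each array's scanner output of spot intensity values was deposited. Per the file headers it came from Agilent Feature Extraction 10.7.3.1 (10.7 in the submitters' processing notes), whose processed signal already has background subtracted. The deposited log2 table served as an alternative, and other columns such as flags were taken unchanged per the file headers. Of 43379 non-control spots on an array, 69.2% to 71.4% were well above background and none was read as saturated (0 spots), and the signal's 75th percentile was 1550 to 1707. The number of arrays limits the precision.

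Controls and 86 to 159 outlier-flagged spots per array were dropped. From the log2 processed signal the array's own 75th percentile was subtracted, and repeated spots were averaged. Testing a probe required every unflagged array of 1 genotype to be well above background and 2 values in both. The genotypes were fitted with lmFit and eBayes (limma 3.58.1 in R 4.3.3), and p-values were adjusted by Benjamini-Hochberg over the tested probes of the whole array. Where a genotype had no array above background, its mean was replaced for a second value of the fold. The replacement was the mean over its arrays of either the probe's signal or the lowest above-background signal, whichever was higher. The limit for a spot can lie above that lowest signal, so such a fold is not a strict lower bound.

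Coordinates are those of the scanner files. A GRCm38.p6 RefSeq gene table named 184 interval probes by unversioned accession, 31 by symbol and 3 by synonym, and for 36 the scanner files' own name stands. Replicates 1 and 2 of both genotypes shared slide 1, replicate 3 of both lay on slide 2, and scans split alike. Replicate numbers were not taken to pair the samples. Correlations of same-numbered deviations were -0.05, -0.03 and 0.14. Those of unlike numbers ran from -0.11 to 0.13, the highest for knockout replicate 1 with wild-type replicate 2, which share slide 1.

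The interval, the role lists and the marker lists were chosen with earlier results of these data known. Named were all called probes, other tested probes of their genes, per list the called members and the 2 uncalled ones of highest wild-type signal, and 3 probes on each side of each edge. Probe sequences were to be printed where they translate into the gene's protein. That could not be applied without a protein table, so, after the values were seen, the first 30 bases were printed for tested probes of genes with a called difference over 0.9 in size.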

Additional observations from a re-analysis of the deposited data

How the results depend on the processing

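Counts of higher and lower calls stayed within 1.5 times of 13 and 15 with median centring, quantile normalization, normexp, the deposited table, flagged spots kept and the brightest probe per gene. Without a filter on dim probes they were 0 and 4. There were 20 higher when all arrays had to be above background, 29 with a variance trend and robust fit and also with array weights, and 6 when probes of a gene were averaged. At adjusted p under 0.1 they were 39 and 24. With the slide as a block they were 1 and 8, and on slide 1 alone 0 and 3. They were 0 and 3 with the replicate number as a block, although the numbers were not taken to pair the samples. With 1 array left out they ran from 0 to 20 higher and from 2 to 16 lower. Apart from the slide block, the share of all tested probes called under these settings is not given here. The counts therefore do not separate a change in the interval from a change over the whole array. The adjoining windows are narrower, at 5 Mb each, and hold fewer tested probes than the interval. From 110 to 115 Mb there were 0 and 1 calls among 41 tested probes, and from 125 to 130 Mb 3 and 1 among 104. The fitted differences of Ltk ran from -3.66 to -1.17 and those of Pla2g4e from -3.07 to -0.72. Both were called wherever they were tested, but against knockout signals not above background, and the filter that needs all arrays above background drops both. Bloc1s6 kept its call in 17 of 19 and Spg11 in 17 of 20. Both counts include the averaged probes of the gene, where the value (-1.46 and -0.68) is not that of the called probe. No called probe changed sign. In all 28 the genotypes did not overlap, so fits on fewer arrays or with a block could not turn a sign.

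Slide 2 alone, with 1 array a genotype, is left out of the list that follows. There the Plcb2 probe was -0.07 and 1 Zfp106 probe -0.04, among other uncalled probes that turned. In the other settings signs turned only for uncalled probes near 0 and for gene means. With normexp Zfp770 was 0.0481, Dph6 0.0085 and 1 Ganc probe -0.0087, and with array weights that Ganc probe was -0.032 and Sqor 0.0349. On slide 1 alone Sqor was 0.0282. With 1 array left out Zfp770 ran from -0.0793 to 0.0115, Dph6 from -0.0516 to 0.0138, the Ganc probes from -0.1134 to 0.0282 and from -0.0335 to 0.0802, Ttbk2 from -0.1525 to 0.0102, Slc30a4 from -0.0148 to 0.0428, Sqor from -0.0627 to 0.0531, Slc24a5 from -0.1263 to 0.0011 and Myef2 from -0.1444 to 0.0102. The averaged probes of a gene, set against its uncalled probe, gave 0.0208 for Dph6, 0.4961 for Ccdc32, -0.2213 for Ganc, 0.1774 for AV039307, 0.2125 for Ppip5k1 and -1.4627 for Bloc1s6, where by construction the called probe enters the average (Dph6 has none). Ltk, Pla2g4e and the dim Spg11 probe were not above background in knockout, so their folds are not measured.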
